A study of Danio rerio with 19 samples.

Results

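The antioxidant defence genes described here are nqo1, hmox1a, gclc, gclm, prdx1, gpx1a, sod1, sod2, cat and txn, found in the count tables by their gene symbol. All 10 were present, among 24886 genes listed in every count table, and all 10 passed the filter on low counts in every comparison. Messenger RNA of whole zebrafish (Danio rerio) larvae was measured in 19 libraries. Atorvastatin (AVS, a statin that inhibits HMG-CoA reductase) was given at 1 µg/L (AVS high, 4 libraries) or 100 ng/L (AVS low, 4 libraries). Afidopyropen (Afid, an insecticide acting on TRPV channels of insects) was given at 1 µg/L (Afid high, 4 libraries) or 100 ng/L (Afid low, 3 libraries), and 4 control libraries came from larvae in the medium the labels call ERM. Neither the strain nor the age of the larvae is given in the sources used here, and the labels do not say whether libraries of a group are separate tanks, clutches or pools, so p-values measure the spread between libraries, which may be technical. The replicate numbers of AVS low and of Afid low have gaps, and neither the reason nor how replicates were selected is stated. Read counts per library were used for every group but Afid high, of which only the authors' deposited table of fold changes was used.

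Cells remove reactive oxygen species in steps. Superoxide dismutases turn superoxide into hydrogen peroxide, and catalase, glutathione peroxidases and peroxiredoxins break down the peroxide. Glutathione peroxidases and peroxiredoxins use glutathione and thioredoxin as electron donors, which are renewed at the cost of NADPH. Many of these genes are targets of the transcription factor NRF2, which the sensor KEAP1 holds low until oxidants or electrophiles modify it. The genes nqo1, hmox1a, gclc and gclm are among its commonly used readouts.

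None of the 10 genes passed the test in any exposure. In the 3 comparisons with control, 0 of 10 had an adjusted p under 0.05 by edgeR's quasi-likelihood test, beside 0% of the 18929 genes tested for AVS high, 0% of 19267 for AVS low and 0% of 19399 for Afid low. The values nearest to a difference were a lower level of txn in AVS high, a higher level of cat in AVS low than in Afid low, and higher levels of cat in each AVS dose and of gclm in AVS high than in control. At an unadjusted p under 0.05, 1 member stood out for AVS high (txn) against 8.75% of all genes, 0 for AVS low against 10.1%, and 0 for Afid low against 7.05%. DESeq2 likewise called 0 of 10 members in each, beside 0.359% of genes for AVS high, 0.234% for AVS low and 0.0825% for Afid low, and limma-voom called no gene in these 3 comparisons. The members' shares are near the background, as far as 10 genes allow a comparison. The 95% interval of the fold change lay within 2-fold in either direction for 8 of 10 members in AVS high, 9 in AVS low and 8 in Afid low.

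**Figure D1:**
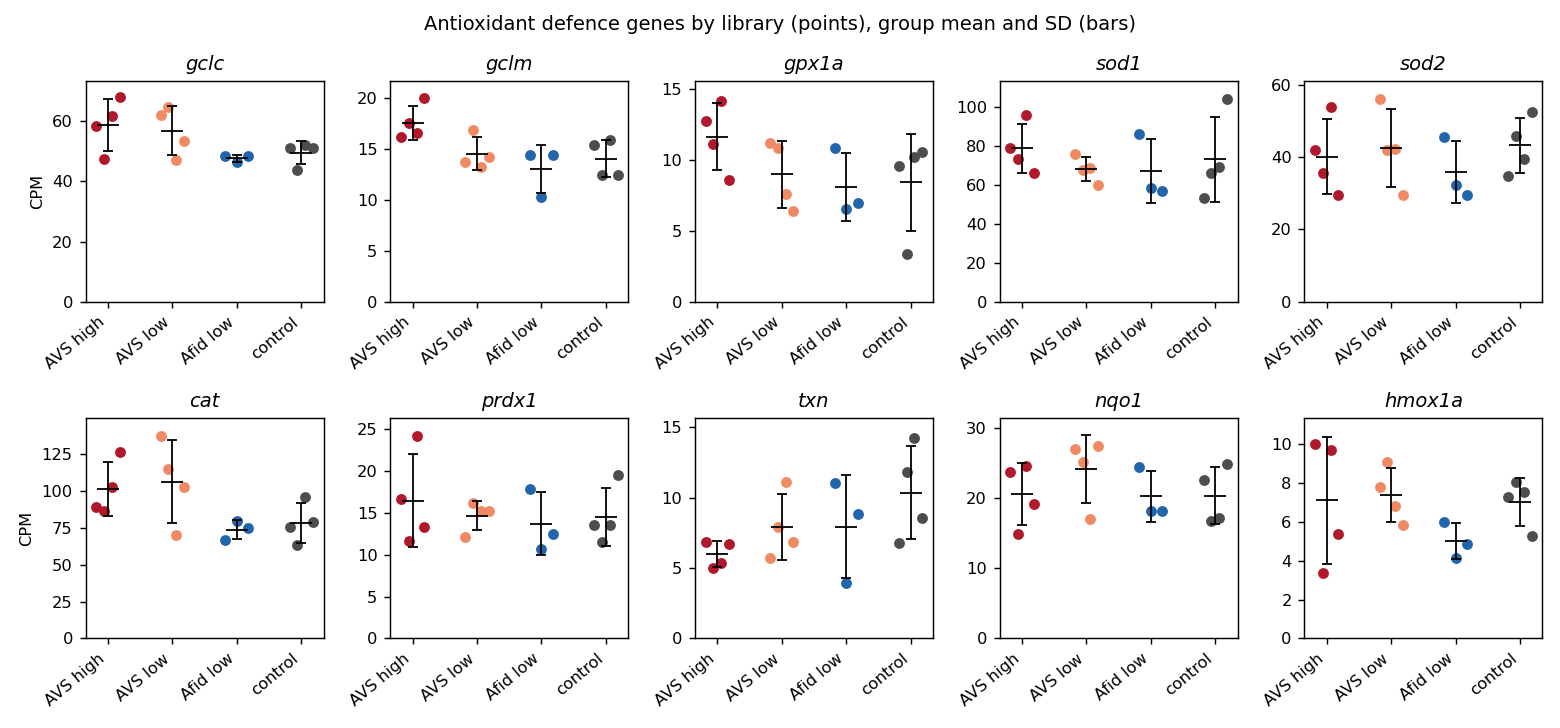
Level of each of the 10 antioxidant defence genes in every library, in CPM (counts per M reads in genes after TMM scaling, vertical axis) by group (AVS high, AVS low, Afid low, control); points are libraries, long ticks are group means and bars are SD. Of the 10 genes only gclm in AVS high (16.2 to 19.9 CPM) lies wholly above control (12.4 to 15.8 CPM), beside 2.25% of all genes.

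Per gene length, the members spanned a wide range of levels. In control libraries sod1 was the most abundant member, at 58.6 ± 17.4 CPM per kb (SD, n = 4), followed by sod2 at 35.5 ± 6.35 CPM per kb. Next came cat at 17.4 ± 2.98, gclc at 16.2 ± 1.26 and nqo1 at 11.6 ± 2.30 CPM per kb, and among neighbours sod1 and sod2 overlapped over control libraries, as did cat and gclc, while nqo1 lay below every gclc value and above every gclm value. The lowest 5 were gclm at 6.96 ± 0.908, txn at 6.60 ± 2.12, gpx1a at 5.95 ± 2.41, prdx1 at 4.17 ± 1.00 and hmox1a at 4.05 ± 0.712 CPM per kb, and neighbours in this order were within their spread of each other. For scale, the median over 20144 genes was 4.09 CPM per kb in control, so that sod1 stood at the 95.7th percentile and hmox1a at the 49.7th. The first 6 places were held by the same members in all 4 groups. Below them txn was 7th in control, 8th in AVS low and in Afid low and 10th in AVS high, where it averaged 3.82 ± 0.592 CPM per kb (SD, n = 4).

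**Figure D2:**
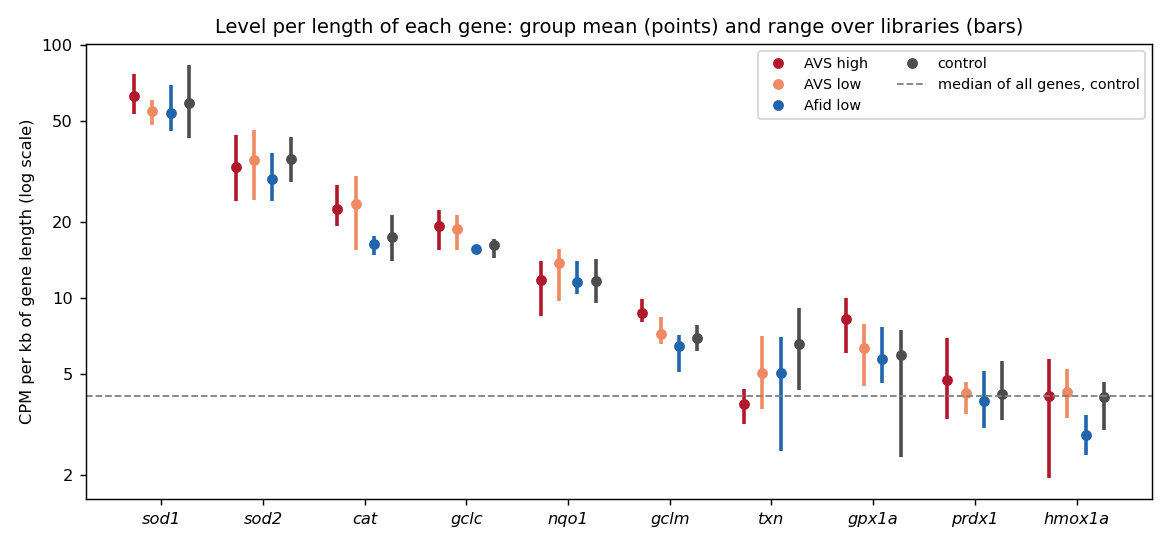
Level per gene length (CPM per kb, log axis) of the 10 genes in each group; points are group means, bars run from the lowest to the highest library, and the dashed line is the median of all genes in control (4.09 CPM per kb). The order from sod1 (58.6 CPM per kb in control) to hmox1a (4.05 CPM per kb in control) is seen in all groups for the first 6 genes, while txn lies lowest in AVS high (3.82 CPM per kb).

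Reduction of quinones and breakdown of heme are the tasks of nqo1 and hmox1a, which are among the NRF2 readouts. In AVS high the group mean of each was close to that of control. The gene nqo1, NAD(P)H quinone oxidoreductase (chromosome 7, 56703254 to 56722320; no source used here names the genome build), stood at 23.7, 14.9, 24.5 and 19.1 CPM in AVS high, 26.9, 25.1, 16.9 and 27.3 CPM in AVS low and 24.4, 18.1 and 18.1 CPM in Afid low, against 22.5, 16.7, 17.2 and 24.9 CPM in control. The 4 groups overlapped throughout, with 3 of 4 AVS low libraries above every control library. Its log2 fold change was 0.02 in AVS high (SE 0.21), 0.24 in AVS low (SE 0.20) and -2.28e-05 in Afid low (SE 0.19), each against control.

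Heme oxygenase, the enzyme that opens the heme ring, is encoded by hmox1a (chromosome 3, 26011482 to 26017831). Its levels were 9.99, 3.37, 9.68 and 5.36 CPM in AVS high, 7.77, 9.07, 6.79 and 5.86 CPM in AVS low and 5.998, 4.15 and 4.88 CPM in Afid low, against 7.29, 8.07, 7.54 and 5.25 CPM in control. AVS high split into a pair of libraries above all control libraries and a pair at the low end, 1 of them below every control library. In Afid low 2 of 3 libraries were below every control library and the groups overlapped at control replicate 4. For Afid low the log2 fold change was -0.48 (SE 0.26), the smallest p among members there (adjusted p = 0.720, edgeR). Against control it was 0.02 in AVS high (SE 0.33) and 0.07 in AVS low (SE 0.24), so AVS low exceeded Afid low by 0.56 on the log2 scale (SE 0.32, adjusted p = 0.693, edgeR). With 27 to 145 reads per library, hmox1a was the member with the fewest reads.

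Glutathione is made in a rate-limiting step by glutamate-cysteine ligase, with the catalytic subunit gclc and the modifier subunit gclm. Both had the smallest spread between libraries of a group of all members. The within-group SD was 0.17 log2 for gclc and 0.19 for gclm, below the median over all genes of 0.39. That median includes genes of low level, where the spread is larger. Among the genes nearest in level, gclc was at percentile 17 of the spread and gclm at percentile 5.5. The catalytic gclc (chromosome 13, 2357637 to 2392664) was measured at 58.3, 47.2, 61.5 and 67.9 CPM in AVS high, 62.0, 64.7, 47.2 and 53.3 CPM in AVS low and 48.4, 46.3 and 48.2 CPM in Afid low, against 51.0, 43.7, 51.9 and 51.1 CPM in control. In each AVS dose 3 of 4 libraries lay above all 4 control libraries and 1 lay among them, while the Afid low libraries sat close together inside the control range. Its log2 fold change was 0.25 in AVS high (SE 0.16), 0.20 in AVS low (SE 0.15) and -0.04 in Afid low (SE 0.14).

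The modifier gclm (chromosome 8, 15269423 to 15277252) was measured at 16.2, 17.5, 16.6 and 19.9 CPM in AVS high, 13.7, 16.9, 13.2 and 14.2 CPM in AVS low and 14.4, 10.3 and 14.4 CPM in Afid low, against 15.4, 12.5, 15.8 and 12.4 CPM in control. All 4 AVS high libraries lay above all 4 control libraries, and gclm was the 1 member of 10 whose AVS high and control groups did not overlap, beside 5.19% of all genes (2.25% in the higher direction). In AVS low and in Afid low 0 of 10 members were free of overlap with control, beside 4.39% and 8.86% of all genes. The AVS high mean was 17.6 ± 1.68 CPM (SD, n = 4) and that of control 14.0 ± 1.83 CPM (SD, n = 4). The log2 fold change was 0.33 (SE 0.18, 95% interval -0.06 to 0.71, adjusted p = 0.620, edgeR), so the difference did not pass the test. AVS low stood at 0.05 (SE 0.18) and Afid low at -0.09 (SE 0.20) against control on the same scale.

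Peroxide is removed by cat, gpx1a and prdx1. The catalase gene cat (chromosome 25, 7492663 to 7504554), whose enzyme works in peroxisomes, was measured at 89.0, 86.7, 103 and 127 CPM in AVS high, 138, 115, 70.3 and 103 CPM in AVS low and 66.8, 79.9 and 75.0 CPM in Afid low, against 75.8, 63.3, 96.1 and 79.3 CPM in control. Control replicate 3, at 96.1 CPM, was the only control library above the lower AVS high libraries, and AVS low ran from below most control libraries to the highest value of all 15. Against control the log2 fold change was 0.37 in AVS high (SE 0.18, adjusted p = 0.579, edgeR) and 0.44 in AVS low (SE 0.21, adjusted p = 0.495, edgeR), and in Afid low it was -0.08 (SE 0.17). The 95% interval in AVS low reached from -0.01 to 0.88, or up to 1.85-fold.

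Glutathione peroxidase, which reduces peroxides with glutathione, has gpx1a among its genes in zebrafish (chromosome 11, 36048579 to 36156971). Its levels were 12.7, 11.1, 14.1 and 8.61 CPM in AVS high, 11.2, 10.8, 7.61 and 6.39 CPM in AVS low and 10.9, 6.53 and 6.93 CPM in Afid low, against 9.56, 3.35, 10.2 and 10.6 CPM in control. Control replicate 2 lay far below all other libraries, and 3 of 4 AVS high libraries lay above all controls. The log2 fold change was 0.47 in AVS high (SE 0.32, adjusted p = 0.673, edgeR) and 0.10 in AVS low (SE 0.34). Without control replicate 2 it was 0.20 in AVS high (SE 0.22), and -0.17 in AVS low (SE 0.25). This library was also the lowest of the 15 in summed level of 8 intestine markers, at 421 CPM against 946 to 1435 CPM in the other controls, and of 13 exocrine pancreas markers, at 2544 CPM against 8644 to 18778 CPM. It had the lowest liver marker level, 1807 CPM for 9 genes, and the highest level of 9 neuron markers, 4335 CPM. No listed gene of the 9 marker lists was at 0 in any group, and the part of these tissues in the gpx1a values was not tested. In whole larvae, fewer cells of a type and less RNA per cell cannot be told apart.

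The paralog gpx1b was measured at 33.3 ± 12.6 CPM in AVS high (SD, n = 4), 38.8 ± 15.001 CPM in AVS low (SD, n = 4) and 30.7 ± 7.33 CPM in Afid low (SD, n = 3), against 36.9 ± 22.6 CPM in control (SD, n = 4). All groups overlapped, and its log2 fold change against control lay between -0.26 in Afid low and 0.08 in AVS low. Peroxiredoxin 1, a thiol peroxidase renewed by thioredoxin, is encoded by prdx1 (chromosome 2, 6104378 to 6115688). It ran from 11.6 to 24.2 CPM in AVS high, 12.1 to 16.2 CPM in AVS low and 10.7 to 17.9 CPM in Afid low, against 11.48 to 19.5 CPM in control. Its largest value was in AVS high replicate 3. Its log2 fold change of 0.18 in AVS high (SE 0.25) became -0.08 without that library, and it was 0.01 in AVS low (SE 0.21) and -0.08 in Afid low (SE 0.24).

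Superoxide is dismutated by sod1 in the cytosol and by sod2 in mitochondria. Neither was separated from control in any exposure. The level of sod1 (chromosome 10, 25694395 to 25699454) ran from 66.4 to 96.1 CPM in AVS high, 60.2 to 75.7 CPM in AVS low and 57.1 to 86.3 CPM in Afid low, against 53.4 to 104 CPM in control. The control range enclosed all exposed libraries. The log2 fold change was 0.11 in AVS high (SE 0.21), -0.11 in AVS low (SE 0.20) and -0.11 in Afid low (SE 0.24).

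The level of sod2 (chromosome 20, 30937934 to 30947547) ran from 29.4 to 53.7 CPM in AVS high, 29.6 to 56.1 CPM in AVS low and 29.5 to 45.5 CPM in Afid low, against 34.9 to 52.6 CPM in control. Each exposed group had at least 1 library below the control range, and each overlapped it. The log2 fold change was -0.11 in AVS high (SE 0.20), -0.02 in AVS low (SE 0.20) and -0.26 in Afid low (SE 0.20).

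Thioredoxin, the small protein that passes electrons to peroxiredoxins and other targets, is encoded by txn (chromosome 7, 24357231 to 24364826). It was the member of smallest p in AVS high. Its levels were 6.83, 5.00, 5.39 and 6.72 CPM in AVS high, 5.69, 7.94, 11.1 and 6.83 CPM in AVS low and 11.0, 3.92 and 8.84 CPM in Afid low, against 6.80, 11.8, 14.3 and 8.56 CPM in control. The AVS high libraries lay together at the low end, below 3 of 4 control libraries, and the groups touched at control replicate 1. In AVS high the log2 fold change was -0.78 (SE 0.27, 95% interval -1.37 to -0.20, adjusted p = 0.480, edgeR), and DESeq2 gave an adjusted p of 0.268. Leaving out each library in turn kept the value between -0.94 and -0.60, and without control replicate 3 its unadjusted p was no longer under 0.05 (edgeR). In AVS low it was -0.39 (SE 0.29), and -0.20 without control replicate 3 or -0.60 without AVS low replicate 4. In Afid low it was -0.37 (SE 0.35), and -0.04 without Afid low replicate 2 or -0.68 without Afid low replicate 1. These 3 values share the same control libraries, in which txn ran from 6.80 to 14.3 CPM.

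RefSeq lists the files' txn as txnb, with txn as a synonym, and its paralog, txna in RefSeq, stands in the files as zgc:56493, a gene picked after its values were seen. That paralog was more abundant, at 103 ± 22.7 CPM in AVS high (SD, n = 4), 83.1 ± 17.2 CPM in AVS low (SD, n = 4) and 114 ± 48.3 CPM in Afid low (SD, n = 3), against 117 ± 27.3 CPM in control (SD, n = 4). Its log2 fold change was -0.18 in AVS high (SE 0.21), -0.49 in AVS low (SE 0.20, adjusted p = 0.473, edgeR) and -0.02 in Afid low (SE 0.26). Its lowest mean was in AVS low, and the difference between the AVS doses for this gene, 0.31 (SE 0.24), did not pass the test (adjusted p = 0.9504, edgeR).

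**Figure D3:**
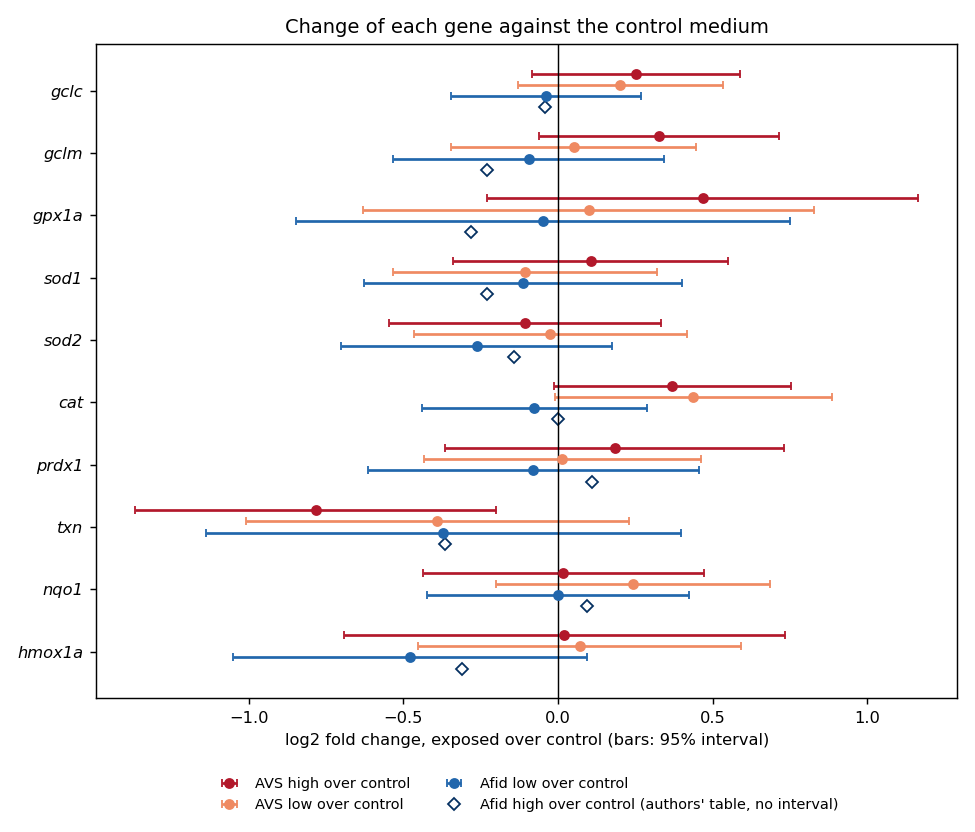
Log2 fold change of the 10 genes against control (horizontal axis) in AVS high, AVS low and Afid low, with 95% intervals as bars, and in Afid high as open diamonds from the authors' deposited table, which has no interval. Of the 30 intervals only that of txn in AVS high (-1.37 to -0.20) leaves out 0.

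As a group, 8 of 10 members had a positive value in AVS high, with a median of 0.14 on the log2 scale beside a median of -0.0010 over all genes tested. Without AVS high replicate 3 the count was 4 of 10 and the median -0.05. In AVS low 7 of 10 were positive, with a median of 0.06 beside -0.0084 over all genes, and without AVS low replicate 2 the count was 3 of 10 and the median -0.02. In Afid low 0 of 10 were positive and 10 were at or below 0, with a median of -0.09 beside 0.0060 over all genes. Without control replicate 4, or without Afid low replicate 2, 4 of 10 were positive in Afid low. The number of members above their own mean over the 15 libraries was 9, 3, 9 and 3 in AVS high, 7, 9, 4 and 4 in AVS low and 6, 0 and 1 in Afid low, against 4, 3, 5 and 6 in control. Libraries of a group thus differed widely in this count, and the groups overlapped.

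Markers of several tissues were also higher or lower in AVS high, and in part in AVS low and Afid low, with 0 genes past the test. Of 12 tested exocrine pancreas markers 12 had a positive value (median 0.78), with a summed level of all 13 of 7999 to 24325 CPM in AVS high and 2544 to 18778 CPM in control. Of 7 lens markers 7 were positive (median 0.56), at 3028 to 5491 CPM in AVS high and 2015 to 4470 CPM in control, and of 8 intestine markers 7 were positive (median 0.40), at 801 to 1611 CPM in AVS high and 421 to 1435 CPM in control. Of 9 neuron markers 7 were negative (median -0.25), at 2444 to 3213 CPM in AVS high and 2734 to 4335 CPM in control. Control replicate 2 had the lowest pancreas, intestine and lens levels and the highest neuron level of the controls. Neuron levels of the other controls ran from 2734 to 3172 CPM. The exposures with counts share these controls. Positive values also prevailed among tested markers of red blood cells (5 of 5, median 0.61), skin (5 of 5, 0.36) and liver (7 of 8, 0.17). The same held for skeletal muscle (5 of 7, 0.18) and for macrophages and neutrophils (3 of 4, 0.24). In AVS low 11 of 12 pancreas (median 0.40), 7 of 8 intestine (0.60) and 7 of 7 lens markers (0.24) were positive. There 8 of 9 neuron markers were negative (-0.30), and 2 of 7 of skeletal muscle were positive (-0.06). In Afid low 7 of 12 pancreas (0.10), 7 of 8 intestine (0.40) and 6 of 7 lens markers (0.12) were positive. In that group 8 of 9 neuron markers were negative (-0.21), and 1 of 7 of skeletal muscle and 2 of 8 of liver were positive. Among AVS high libraries, replicate 3, without which the members' count was 4 of 10, had the highest pancreas level. It also had the highest skin level (12448 CPM over 5 markers) and the lowest neuron level of AVS high. The part of these markers in the members' values was not tested.

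Between the AVS doses, AVS high exceeded AVS low in 5 of 10 members, and the median was -0.0013. No member had an adjusted p under 0.05 by edgeR, beside 0% of 20144 genes, or by DESeq2, beside 0.0298%. Further, 0 of 10 had an unadjusted p under 0.05, beside 5.44%, or groups without overlap, beside 2.03%. The smallest p belonged to gclm, at 0.27 on the log2 scale (SE 0.17, adjusted p = 0.942, edgeR), with an interval of -0.09 to 0.64. The interval of txn was -1.05 to 0.26 around -0.40.

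At the matched dose of 100 ng/L, AVS low exceeded Afid low in 9 of 10 members, with a median of 0.21 beside 0.03 over all genes. No member passed the test, beside 0% of 20144 genes. By unadjusted p, 1 member (cat) was under 0.05, beside 6.73% of all genes, and 0 of 10 were free of overlap, beside 7.44%. For cat the log2 difference was 0.53 (SE 0.21, adjusted p = 0.693, edgeR), at 106 ± 28.1 CPM in AVS low (SD, n = 4) and 73.9 ± 6.58 CPM in Afid low (SD, n = 3). The difference was 0.35 without AVS low replicate 1 and 0.42 without Afid low replicate 1, and in neither case was the unadjusted p of cat under 0.05. The interval of gclc was -0.08 to 0.59, and that of nqo1 was -0.21 to 0.72.

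At 1 µg/L of afidopyropen, the authors' deposited table gave a log2 fold change below 0 for 8 of 10 members and above 0 for 2, with a median of -0.19 beside 0.03 over the 25853 genes of that table. The largest in size were -0.37 for txn and -0.31 for hmox1a in the authors' deposited table, with p-values of 0.168 and 0.213. The values nearest to 0 were -0.04 for gclc and -0.00067 for cat in the authors' deposited table. A p under 0.05 was given in the authors' deposited table for 0 of 10 members, beside 7.03% of its genes. The authors' deposited table gave no error for these values, and whether it used the same control libraries as the other comparisons was not checked.

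Members differed in how much they varied between libraries. From the lowest to the highest of the 15 libraries, gclc spanned 1.55-fold and gpx1a 4.23-fold, with txn at 3.64-fold and hmox1a at 2.96-fold. Of 45 pairs of members, 39 had a positive Pearson correlation of log2 CPM over the 15 libraries, with a median of 0.34. Within groups 36 were positive, with a median of 0.31. No such share was computed for pairs of other genes, and the part of tissue composition in these correlations was not tested. The permutations below shuffled the 15 libraries without regard to group. The closest pair was gclc and cat, at Pearson r = 0.88 and Spearman rho = 0.86 (permutation p = 2e-05 and 3e-05, adjusted over 45 pairs 9e-04 and 0.00135). Leaving out the 2 libraries farthest from the median of gclc gave r = 0.83, and within groups r was 0.81. Next were sod1 and sod2, at r = 0.77 and rho = 0.71 (permutation p = 0.00087 and 0.00395, adjusted 0.0196 and 0.0593), with r = 0.66 without the 2 farthest libraries and 0.84 within groups. The pair prdx1 and sod1 had r = 0.72 and rho = 0.61 (permutation p = 0.00249 and 0.0188, adjusted 0.0374 and 0.169). Within groups r was 0.71, but without the 2 libraries farthest from the median of prdx1 it was only 0.45. For gpx1a and sod1 rho was 0.76 and r was 0.54 (permutation p = 0.00142 and 0.0355, adjusted 0.0320 and 0.183). Their r was 0.69 without the 2 libraries farthest from the median of gpx1a and 0.50 within groups. The lowest was cat and txn, at r = -0.40 (permutation p = 0.140, adjusted 0.315).

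**Figure D4:**
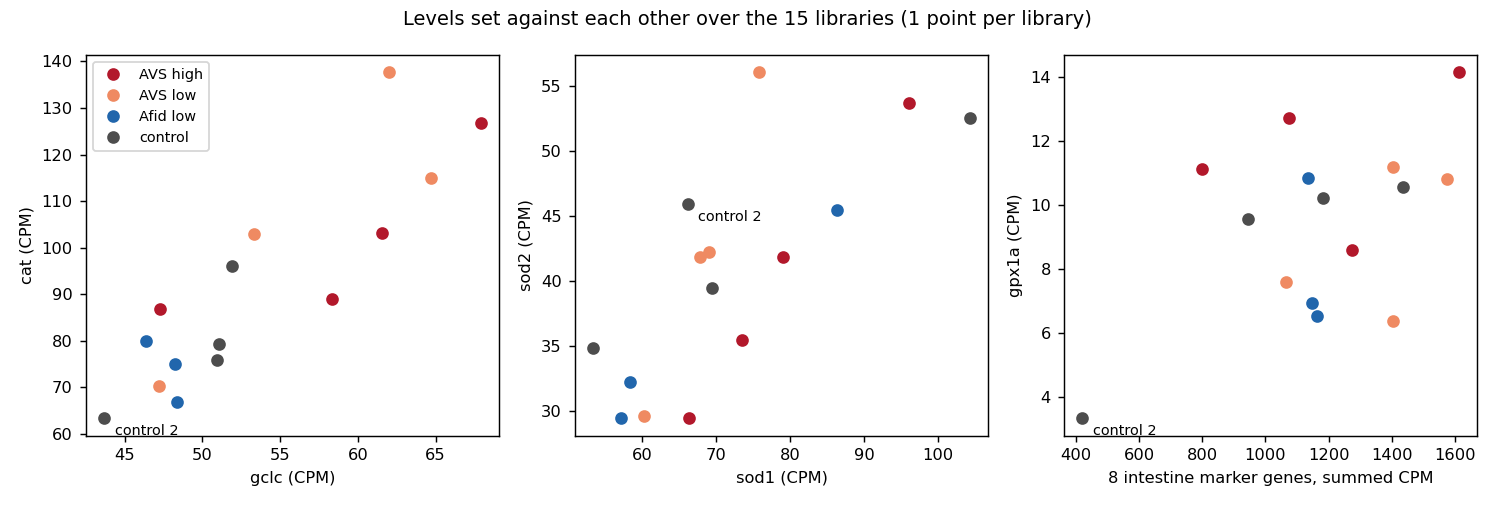
Each point is a library, coloured by group; axes are in CPM. The left panel sets cat against gclc (r = 0.88 on log2 values), the middle panel sod2 against sod1 (r = 0.77) and the right panel gpx1a against the summed level of 8 intestine markers, where control replicate 2 is lowest on both axes (3.35 and 421 CPM).

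Over 15204 genes with a symbol and enough reads, those whose log2 CPM followed a member most closely across the 15 libraries were slc30a1a for cat (r = 0.97), tpt1 for sod1 (r = 0.96), chia.6 for gpx1a (r = 0.94), tdh for gclc (r = 0.93), selenow1 for sod2 (r = 0.93) and rbp4 for prdx1 (r = 0.92). The likenesses were lower for uap1 with nqo1 (r = 0.89), loxa with gclm (r = 0.86), apex2 with hmox1a (r = 0.85) and mrpl52 with txn (r = 0.83). These are the highest of many correlations over 15 libraries that share their library composition, and are given as a description.

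The regulators of the pathway were measured beside its readouts. Of 15 tested regulators of NRF2, 0 passed the test in the 3 comparisons with control. In AVS low 2 of 15 had an unadjusted p under 0.05, beside 10.1% of all genes, and in Afid low 2 of 15, beside 7.05%. In AVS high 7 were higher and 8 lower, and 3 had an unadjusted p under 0.05, beside 8.75% of all genes. These were keap1a, a repressor of NRF2, at 29.3 CPM in AVS high and 19.8 CPM in control (0.57, SE 0.20), and mafga and mafgb, small MAF partners of NRF2, at 0.848 against 2.20 CPM (-1.39, SE 0.42) and at 5.40 against 9.45 CPM (-0.81, SE 0.31). The AVS high and control groups of keap1a did not overlap, nor did those of mafga, beside 5.19% of all genes. The adjusted p of keap1a was 0.480 by edgeR. In AVS low keap1a was at 30.0 CPM, against 20.7 CPM in control (0.53, SE 0.21, adjusted p = 0.471, edgeR), with overlap. In Afid low it was 0.26 (SE 0.20). The more abundant paralog keap1b was at 155 CPM in AVS high and 133 CPM in control (0.22, SE 0.16), and its values were -0.03 in AVS low (SE 0.19) and -0.08 in Afid low (SE 0.15), with overlap in each. For Afid high the authors' deposited table gave a p under 0.05 before adjustment for 4 of 16 regulators, beside 7.03% of its genes. Its log2 fold changes for them were -0.56 for rbx1, -0.34 for keap1b, 0.45 for bach1b and 0.41 for nfe2l2a.

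Among the zebrafish NRF2 genes, nfe2l2a had a mean of 205 CPM in Afid low and 142 CPM in control (0.53, SE 0.22, adjusted p = 0.688, edgeR), with overlap of the groups. Its log2 fold change was 0.32 in AVS high (SE 0.27) and 0.31 in AVS low (SE 0.21). The heme-sensing repressor bach1b was at 31.3 CPM in Afid low and 22.3 CPM in control (0.49, SE 0.19, adjusted p = 0.688, edgeR), without overlap, beside 8.86% of all genes. It was at 30.1 CPM in AVS low and 21.8 CPM in control (0.46, SE 0.20, adjusted p = 0.476, edgeR), also without overlap, beside 4.39% of all genes. The authors' deposited table gave 0.45 for bach1b and 0.24 for keap1a in Afid high. The values of AVS high, AVS low and Afid low share the control libraries.

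**Figure D5:**
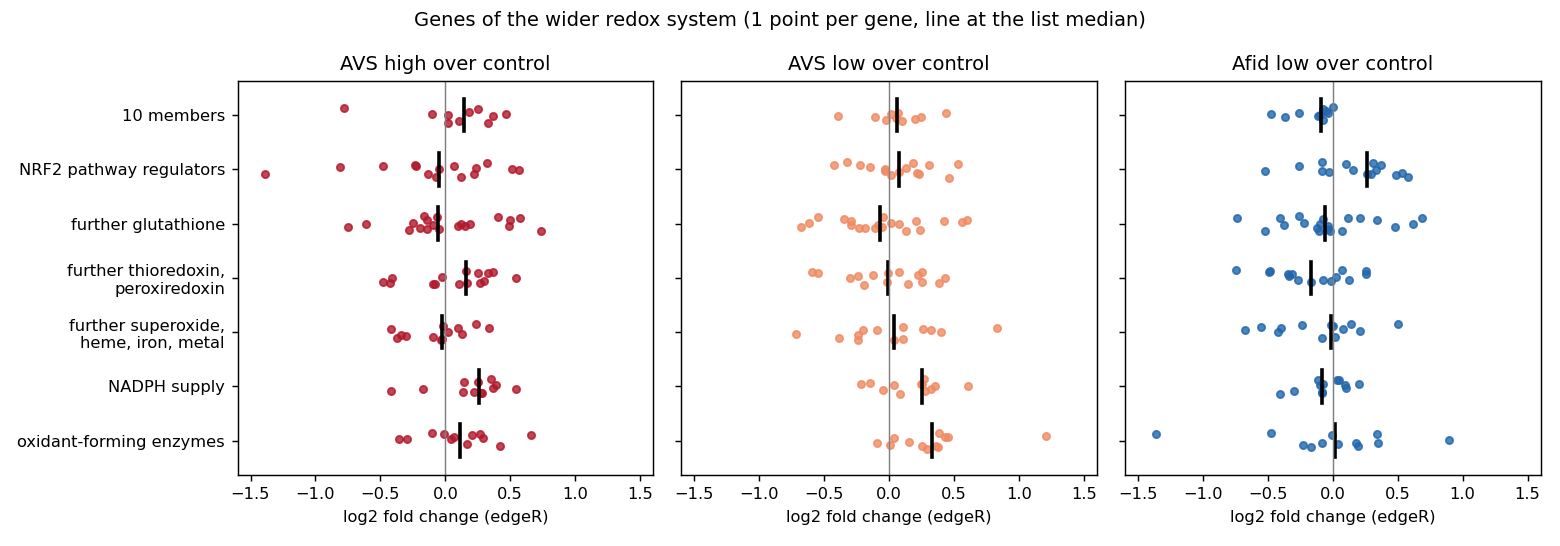
Log2 fold change (horizontal axis) of each tested gene of the 10 antioxidant defence genes and of 6 further gene lists (rows), with a panel for each exposure over control (AVS high, AVS low, Afid low); points are genes and vertical lines are list medians. The medians of the 10 genes are 0.14 in AVS high, 0.06 in AVS low and -0.09 in Afid low.

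In the 5 further lists 0 genes passed the test in any comparison with control. For scale, groups did not overlap with control for 5.19% of all genes in AVS high, 4.39% in AVS low and 8.86% in Afid low. Among 20 further glutathione genes the median log2 fold change was -0.06 in AVS high, -0.07 in AVS low and -0.06 in Afid low. In Afid low 1 of these genes, glrx3, had an unadjusted p under 0.05 (-0.38, SE 0.16), beside 7.05% of all genes. Among 15 further thioredoxin and peroxiredoxin genes the count under 0.05 was 5 in AVS high, beside 8.75% of all genes, 4 in AVS low, beside 10.1%, and 2 in Afid low, beside 7.05%. The methionine sulfoxide reductase msra, which repairs oxidised methionine, had a mean of 16.8 CPM in Afid low and 28.0 CPM in control, without overlap (-0.74, SE 0.22, adjusted p = 0.688, edgeR). Its value was -0.48 in AVS high (SE 0.21) and -0.59 in AVS low (SE 0.22), each against the same controls and with overlap. In Afid high the authors' deposited table gave a p under 0.05 before adjustment for 3 of 16 genes of this list, beside 7.03% of its genes. Its log2 fold changes for them were -0.64 for msra, -0.56 for prdx5 and -0.48 for prdx3. The gene txnipb, of the thioredoxin-interacting protein family, was at 31.5 CPM in AVS high and 21.6 CPM in control, without overlap (0.55, SE 0.17, adjusted p = 0.424, edgeR). The thioredoxin-like txnl1 had values of -0.41 in AVS high (SE 0.17) and -0.54 in AVS low (SE 0.20), and msrb3, a further methionine sulfoxide reductase, 0.43 in AVS low (SE 0.16). The mitochondrial thioredoxin txn2 was at 29.2 CPM in Afid low and 41.0 CPM in control, without overlap (-0.49, SE 0.19, adjusted p = 0.688, edgeR).

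Of 12 genes of NADPH supply, 10 had a positive value in AVS high (median 0.26), 9 in AVS low (0.25) and 5 in Afid low (-0.08), with tktb, a transketolase, at 0.39 (SE 0.16) in AVS high. The transaldolase taldo1 was at 50.1 CPM in Afid low and 66.5 CPM in control, without overlap (-0.41, SE 0.16, adjusted p = 0.688, edgeR). Of 12 oxidant-forming enzymes, 8 had a positive value in AVS high (median 0.12), 11 in AVS low (0.33) and 6 in Afid low (0.02). Over all genes tested the medians were -0.0010 in AVS high, -0.0084 in AVS low and 0.0060 in Afid low. Such counts of the further lists were not recomputed without single libraries. The NADPH oxidase nox1 was at 6.50 CPM in AVS low and 2.81 CPM in control (1.21, SE 0.40, adjusted p = 0.464, edgeR), with overlap, and at 5.34 CPM in Afid low and 2.87 CPM in control, without overlap. Among 13 further superoxide, heme, iron and metal genes the median was -0.03 in AVS high, 0.04 in AVS low and -0.01 in Afid low, with slc40a1, the iron exporter, at 0.32 (SE 0.15) in AVS low and park7 at -0.56 (SE 0.22) in Afid low. The monoamine oxidase mao was at 0.37 (SE 0.16) in AVS low, and the calcium-dependent oxidase nox5 at -1.36 (SE 0.56) in Afid low, with means of 0.383 CPM in Afid low and 1.00 CPM in control. For Afid high the authors' deposited table gave an unadjusted p under 0.05 for 2 of 20 further glutathione genes, gpx4b (-0.67) and glrx3 (-0.38). The same held for 2 of 14 superoxide, heme, iron and metal entries, mt2 (-0.83) and park7 (-0.47). It also held for taldo1 (-0.38) of 12 NADPH supply genes and nox1 (1.21) of 13 oxidant-forming enzymes, beside 7.03% of that table's genes. Between exposures 0 genes of the 6 lists passed the test, and those under an unadjusted 0.05 were mafgb (-0.95), nxn (-0.51) and cybb (-0.51) for AVS high against AVS low, and nfe2l1a (-0.68) and taldo1 (0.69) for AVS low against Afid low.

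Some members share their place with another gene. On the same strand gpx1a overlaps brk1, with a mean of 707 reads, and sod1 overlaps scaf4a, with 1169 reads, while sod2 overlaps wtap on the opposite strand, with 1294 reads. These overlaps are of gene spans from start to end, and whether exons overlap was not looked at. The strand option of the counting is not given in the sources used here. For sod2 it is thus not known whether reads of any shared exon positions were told apart. For gpx1a and sod1 the partner is on the same strand, so no strand option could tell reads of shared positions apart. On the opposite strand gpx1a also overlaps CR933559.1, with a mean of 6.13 reads. The genes gclc and cat also overlap a further gene on the same strand, and the other 5 members overlap none. The 15 libraries held 8.63 to 18.6 M reads in genes.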

How the data were processed

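Messenger RNA of whole larvae was sequenced in 19 libraries. The authors ran HISAT2, featureCounts, fastp and DESeq2, per the submitters' processing notes, and no source used here names versions, settings or the genome build. Raw counts of reads per gene stand in 3 deposited tables, per the file headers, 1 for each exposed group other than Afid high. Each table carries the 4 control libraries, with equal counts throughout (0 genes unlike). The deposited tables give gene positions and lengths too, along with a log2 fold change, a p-value and its adjusted form, all computed by the authors. Of Afid high only these authors' values were used. An adjusted p of 1, present for 89.2% of its 25853 genes, can stand for a value not given, and no adjusted p of Afid high is reported here. Normalized values in 46 other columns were left aside.

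The counts were compared here with edgeR 4.0.16 (quasi-likelihood, TMM, filterByExpr) in R 4.3.3. Each exposure was set against control on its own table, and exposures against each other in 1 fit of the 15 libraries with counts. P-values were adjusted over all genes tested by Benjamini-Hochberg at 0.05. The standard error (SE) behind the 95% intervals is the absolute log2 fold change over the root of the F statistic. CPM per library was scaled by TMM over the 15 libraries, and CPM per kb used the deposited gene length. Mean CPM of genes of the further lists was scaled by TMM within the libraries of each comparison. For these genes the control mean therefore differs between comparisons. Correlations used log2 CPM with a prior count of 2 and 100000 permutations. Alternatives were DESeq2 1.42.0, limma-voom (limma 3.58.1), size-factor scaling, no filter on low counts, a replicate block, a gene length trend, another set of libraries in the fit and leaving out each library. The scripts were tested on simulated data.

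The libraries held 8.63 to 18.6 M reads in genes, members had at least 27 reads per library, and no pair of 21 within a group was a duplicate (chi-square per degree of freedom at least 7.43). Members, further lists, markers and tests were chosen with earlier results of these data known. Named were all members, their closest gene in CPM over libraries, nfe2l2a, keap1a and gpx1b, and from each further list at most 3 genes of smallest unadjusted p under 0.05 in a comparison. Lists were matched by exact symbol, and list genes under other names were not analysed here.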

Additional observations from a re-analysis of the deposited data

Results flagged for a closer look

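In a group of 4 libraries, a library was singled out where its gap to the nearest of the others, divided by the group's range, exceeded Dixon's 95% critical value. This was looked for in 30 groups of 4 libraries, and chance alone singles out about 1 in 20 groups. It applied to 2 values, both in control replicate 2. The level of gclc there was 43.7 CPM, against 51.0 to 51.9 CPM in the other 3 control libraries. The level of gpx1a there was 3.35 CPM, against 9.56 to 10.6 CPM in the other 3. Without this library the log2 fold change of gclc was 0.20 in AVS high (SE 0.17), 0.14 in AVS low (SE 0.16) and -0.10 in Afid low (SE 0.13), and that of gpx1a in Afid low was -0.32 (SE 0.24). The part of its digestive and neuronal marker levels in these values was not tested.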

How the results depend on the processing

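The count of members called was 0 in all 5 comparisons under every alternative run. Over all genes, where the count was 0, DESeq2 called 68 for AVS high, 45 for AVS low, 16 for Afid low and 6 for AVS high against AVS low, and no filter on low counts gave 2 for AVS high. Leaving out each library in turn gave 0 to 1 for Afid low, the 1 without control replicate 4, and 0 elsewhere. Of 730 alternative values of members, 75 had the opposite sign, at a main size of up to 0.18 on the log2 scale, and the smallest adjusted p of a member was 0.156. Deviations from the group mean in same-numbered libraries of different groups had correlations of -0.26 to 0.13. The highest was for replicate 2 of AVS high and control, each other group pair being lower. The labels do not say what the numbers stand for, and these few correlations cannot settle whether the numbers pair libraries. With a replicate block 0 genes and 0 members were called in each comparison. Members with few reads, such as hmox1a (27 to 145), carry the widest intervals with gpx1a and txn.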
